A study of Mus musculus with 12 samples.

Results

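The 8 genes described here encode the calcium-activated potassium channels of the BK, SK and IK types that the array measures: the BK pore gene Kcnma1, its beta subunit genes Kcnmb1, Kcnmb2 and Kcnmb4, the SK genes Kcnn1, Kcnn2 and Kcnn3, and the IK gene Kcnn4. Their values were read from all non-control probes carrying 1 of these gene names, and they make up 8 of 19505 genes and 70 of 165865 exon probes. The question of the study was how gene expression differs along the tonotopic axis of the mouse cochlea. Cochleae of 4 male C57BL/6 mice aged 6 weeks were dissected into apical, middle and basal turns, and each turn was measured on 4 one-color exon arrays from 25 ng of total RNA per array, with no treatment and no genetic change. Each turn sample was a mixture of the organ of Corti, the lateral wall and the spiral ganglion, so no value below belongs to 1 cell type. The methods name 4 mice and the paper describes the 4 arrays of a turn as independent mouse samples, so arrays of different turns share animals. The labels do not say which, and the main tests below treat all arrays as independent. The 4 arrays of each turn also lay on a slide of their own, so that slide and turn cannot be told apart.

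Calcium-activated potassium channels open when calcium rises inside a cell and carry potassium out, which pulls the membrane potential down. BK channels respond to voltage and calcium together through a large intracellular calcium sensor and are known for the fast potassium current of inner hair cells. SK channels sense calcium through bound calmodulin, and SK2, the product of Kcnn2, carries the inhibitory current of outer hair cells that follows calcium entry through the alpha9 and alpha10 acetylcholine receptor at efferent synapses. The IK channel uses calmodulin in the same way and is known from red cells, lymphocytes and epithelia.

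Kcnma1 had a higher signal at the apex and middle turn than at the base, and so did the beta subunit gene Kcnmb4. Kcnn2 and Kcnn4 were higher in the base. Kcnmb2 passed only between middle turn and base, with more signal in the middle turn, and Kcnmb1, Kcnn1 and Kcnn3 passed no comparison. An F test for any difference among turns (limma, adjusted p under 0.05) was passed by 5 of the 8 genes, where 38.7% of all genes passed, and none reached a 2-fold difference between any pair of turns as well, where 4.69% of all genes did. In limma's comparison of apex with base, 2 of 8 had the higher signal at the apex (17.6% of all genes) and 2 of 8 had it at the base (21.6% of all genes). Between apex and middle turn 0 of 8 were higher at the apex (4.42% of all genes). The middle turn exceeded the base for 3 of 8 (11.6% of all genes) and fell below it for 1 (9.23% of all genes). Single arrays bore on these counts: without basal replicate 4 the F test was passed by 3 genes, the apex was higher than the base for 1 gene without apical replicate 1, basal replicate 2 or basal replicate 4, and without basal replicate 3 the F test and 2-fold were passed by 2 genes. The median size of the apex-to-base difference was 0.60 on the log2 scale over the 8 genes and 0.19 over all genes. Judged by arrays, 1 gene had all apical above all basal arrays (16.9% of all genes) and 2 the reverse (21.4%), 3 had all middle above all basal arrays (12.5%) and 2 the reverse (11.6%), and 1 had all middle above all apical arrays (13.5%). A lower signal in a turn can come from fewer cells of a type or from less RNA per cell, and these arrays cannot tell the 2 apart.

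**Figure D1:**
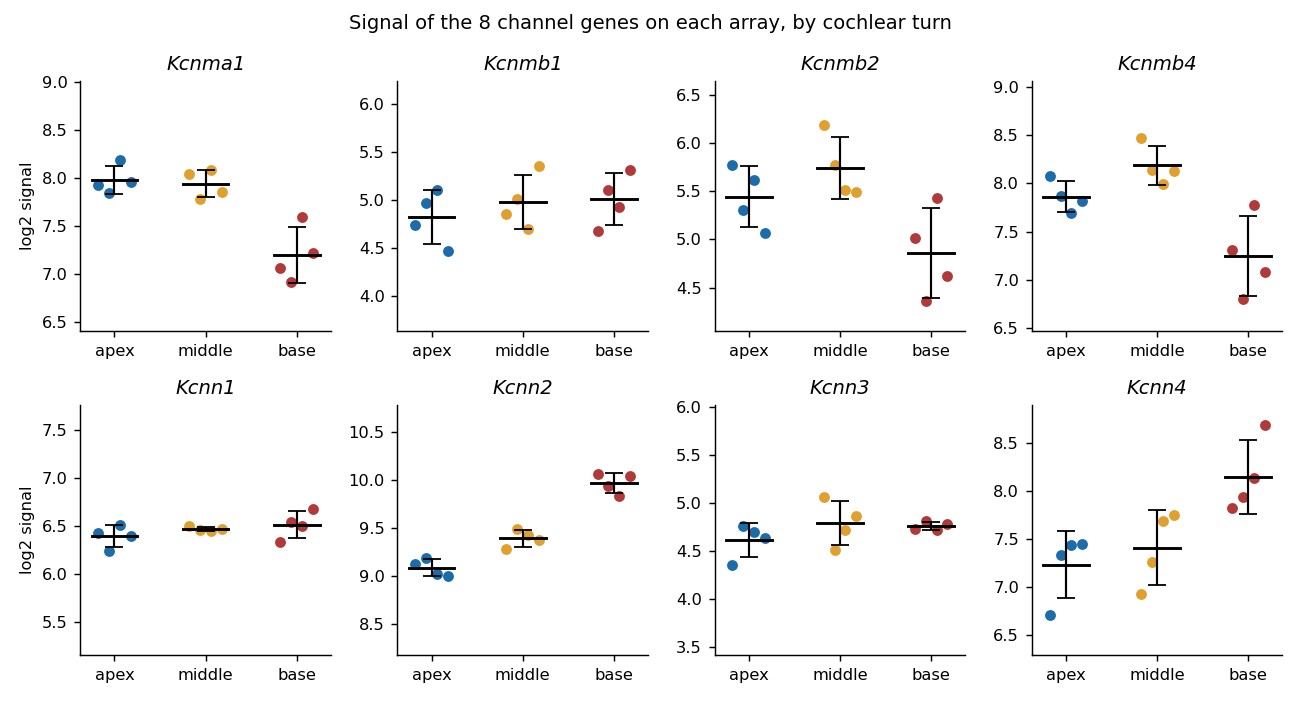
Log2 signal of each of the 8 genes (y axis, the mean over a gene's probes, same span in every panel) on the 4 arrays of each cochlear turn (x axis). Points are arrays, thick lines are means and bars are SD. Kcnma1 and Kcnmb4 sit lowest in the base, while Kcnn2 and Kcnn4 sit highest there.

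Kcnma1 encodes the pore-forming subunit of the BK channel. Its 28 probes span chr14:24118701-24823061 on the minus strand of mm9. Its signal, the scaled intensity averaged over probes on the log2 scale, was 243.9, 229.1, 291.5 and 249.2 on the apical arrays, 262.4, 220.5, 271.6 and 231.3 on the middle arrays, and 133.6, 120.7, 192.9 and 149.3 on the basal arrays. All 4 apical and all 4 middle arrays were above all 4 basal arrays, and the apical and middle arrays overlapped. The apex exceeded the base by 0.78 ± 0.14 (log2, SE, adjusted p = 0.00098, limma), a 1.72-fold difference, and the middle turn exceeded it by 0.74 (adjusted p = 0.0043). Between apex and middle the difference was 0.04, with a 95% confidence interval of -0.26 to 0.34. When each array was scaled to its spike-in probes instead, the apex-to-base difference became 0.30 (adjusted p = 0.11), in a setting where the median of all genes moved from -0.04 to -0.52.

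Of the 28 probes, 26 were well above background on all 12 arrays. All 26 had a higher mean at the apex than the base, by 0.24 to 1.10 on the log2 scale, and 25 of them passed the test of that comparison, where 18% of all probes passed in this direction. No Kcnma1 probe departed from the gene's other probes by the F test over the 3 turns. In the comparison of apex with base alone, the probes at positions 366 and 828 lay below the others by -0.56 (adjusted p = 0.029) and -0.42 (adjusted p = 0.037), and limma's diffSplice called the probe at position 2688 between middle and base (adjusted p = 0.016), which was well above background on 1 of 4 basal arrays. The smallest difference, 0.24 ± 0.09 (SE, adjusted p = 0.073), was that of the probe nearest the start of the transcript. Its 3 best known functional parts each lie in 1 probe, and these probes are shown because the channel's pore, an optional exon and its calcium sensor can be read separately from them. Capitals mark the codons of the potassium selectivity filter in the pore probe, the codons of the cysteine-rich stretch in the probe of the alternative STREX insert, and the codons of the calcium bowl, a run of acidic residues that binds calcium, in the calcium bowl probe.

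Kcnma1 pore probe, chr14:24347582-24347641: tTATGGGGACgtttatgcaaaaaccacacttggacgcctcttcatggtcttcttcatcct
Kcnma1 STREX probe, chr14:24244898-24244957: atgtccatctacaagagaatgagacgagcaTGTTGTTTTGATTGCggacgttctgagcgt
Kcnma1 calcium bowl probe, chr14:24150129-24150188: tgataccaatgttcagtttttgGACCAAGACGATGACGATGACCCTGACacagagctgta

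The letters TANGGNGAN, searched on both strands with N as any base, lie in 1.35% of all probes, and the filter codons marked above in 0.358%. The codons of the cysteine-rich stretch lie in 0.0133% of all probes, and those of the calcium bowl in 1 probe of 165984. The pore probe exceeded its basal level at the apex by 0.77 ± 0.14 (log2, SE, adjusted p = 0.0022) and the calcium bowl probe by 0.78 ± 0.15 (adjusted p = 0.0023). The STREX probe was not well above background on any of the 12 arrays, so that transcripts with this insert were not detected by this probe, and no level is given for them. How well the probe binds such transcripts was not tested. STREX is an exon that a cell may include or skip, and the 26 probes well above background on all 12 arrays lie in other exons.

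**Figure D2:**
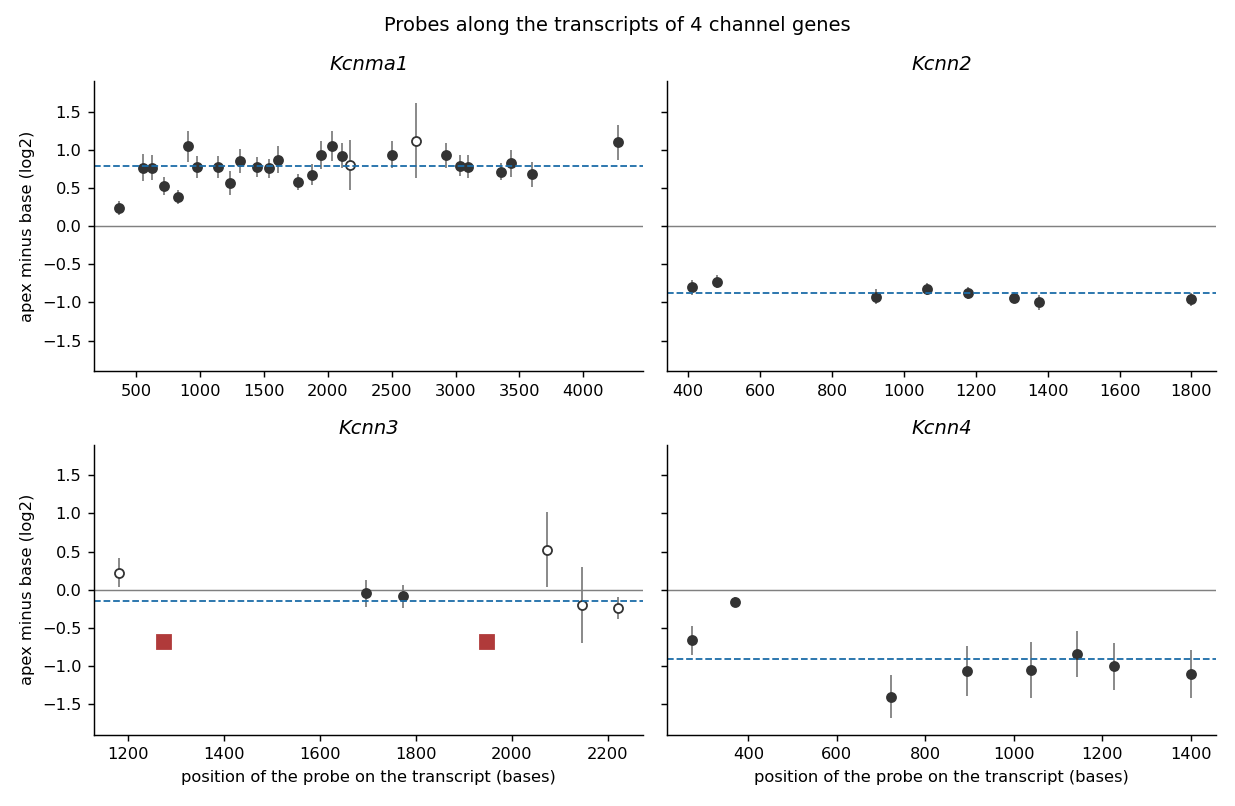
Apex minus base (y axis, log2 with SE) of each probe against its position on the transcript in bases (x axis) for Kcnma1, Kcnn2, Kcnn3 and Kcnn4. Filled points were well above background on all 12 arrays, open points were not, red squares are the 2 probes that departed from their gene's other probes, and the dashed line is the gene's value. All probes of Kcnma1 lie above 0 and all of Kcnn2 and Kcnn4 below it.

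The beta subunits set the gating of the BK channel, and 3 of their genes were measured. Kcnmb4, whose product is the main beta subunit of neurons, gave 270.7, 233.5, 206.4 and 225.2 on apical arrays, 355.4, 282.8, 255.8 and 280.7 on middle arrays, and 158.9, 111.2, 219.4 and 135.4 on basal arrays. Every middle array was above every basal array, while the highest basal array, replicate 3, lay within the apical range. The apex exceeded the base by 0.62 ± 0.18 (log2, SE, adjusted p = 0.019, 1.54-fold) and the middle turn exceeded it by 0.95 (adjusted p = 0.0056). All 3 probes of Kcnmb4 were well above background on all 12 arrays, and 2 of the 3 passed the test of apex against base. Scaling to the spike-in probes lowered the apex-to-base difference to 0.13 (adjusted p = 0.45). Without apical replicate 1, basal replicate 2 or basal replicate 4 the difference was 0.55, 0.47 and 0.57, and the adjusted p rose to 0.056, 0.052 and 0.054.

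Kcnmb2, whose product makes BK channels inactivate, gave 54.92, 39.47, 49.02 and 33.59 on apical arrays, 73.0, 54.86, 45.62 and 44.94 on middle arrays, and 32.44, 20.51, 42.99 and 24.6 on basal arrays. The middle arrays were above the basal arrays with no overlap, and the apical arrays overlapped both. The middle turn exceeded the base by 0.89 ± 0.24 (log2, SE, adjusted p = 0.024), whereas the apex-to-base difference of 0.59 did not pass (adjusted p = 0.079). Only 1 of its 4 probes was well above background on all 12 arrays, so most of its signal lies near the detection limit. That probe had apical, middle and basal means of 186.6, 183.5 and 144.1, and its middle minus base of 0.35 did not pass (limma, adjusted p = 0.19). The other probes gave a middle minus base of 0.73 to 1.24 and were well above background on at most 1 basal array. With normexp background correction the apex-to-base difference was 0.17 (adjusted p = 0.24), under spike-in scaling 0.10 (adjusted p = 0.68) and under quantile normalization 0.39 (adjusted p = 0.22), and as the median of probes it was 0.80 (adjusted p = 0.036). The middle-to-base call was lost without middle replicate 1 or 2 or basal replicate 2 or 4, where the difference was 0.74, 0.87, 0.72 and 0.81. Kcnmb1, whose product is the beta subunit of smooth muscle, had 1 probe of 3 well above background on every array, with apical, middle and basal means of 340.6, 342.3 and 340.2. Its gene value did not pass the F test (adjusted p = 0.64), and the other 2 probes were not well above background on any array.

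Kcnn2, which encodes SK2, had the smallest adjusted p among the 8 genes, and its 8 probes lie on chromosome 18 on the plus strand. The apical arrays gave 561.5, 583.8, 520.2 and 513.4, the middle arrays 622.0, 719.1, 687.5 and 666.1, and the basal arrays 1068, 978.7, 912.8 and 1055. The 3 turns did not overlap at either step: every middle array was above every apical array, and every basal array above every middle array. Each step passed the test, the middle turn exceeding the apex with an apex minus middle of -0.31 ± 0.07 (log2, SE, adjusted p = 0.019) and the base exceeding the middle turn with a middle minus base of -0.57 (adjusted p = 0.00037). The first step lost its call without apical replicate 3 (-0.29) or middle replicate 2 (-0.27). Apex minus base was -0.88 (adjusted p = 5.7e-06), so that the base was 1.84-fold higher. Of all genes, 7.61% exceeded the apex at the middle turn by the same test.

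All 8 probes of Kcnn2 were well above background on all 12 arrays and all 8 passed the test as higher in the base, where 16.4% of all probes did. Their apex-minus-base values ran from -0.998 to -0.73 on the log2 scale, and none departed from the others. The most 3' probe, printed at 10 spots, had apical, middle and basal means of 3130, 4164 and 6087. Its difference was -0.96 ± 0.08 (SE).

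Kcnn4 encodes the IK channel, which like the SK channels binds calmodulin. Its signal was 104.8, 161.6, 172.7 and 174.5 on apical arrays, 121.7, 153.5, 206.4 and 215.6 on middle arrays, and 226.0, 245.1, 279.9 and 411.0 on basal arrays. All basal arrays were above all apical and all middle arrays, and apex and middle overlapped. In each turn the signal rose from replicate 1 to replicate 4. With the replicate number as a block, apex minus base had an adjusted p of 0.00045 (limma). Apex minus base was -0.91 ± 0.24 (log2, SE, adjusted p = 0.011), so that the base was 1.88-fold higher, while middle minus base, -0.73, did not pass (adjusted p = 0.052) but passed under 12 of 23 alternatives. Without basal replicate 4, the highest array, apex minus base was -0.73 (adjusted p = 0.032). All 8 probes had lower means in the apex, and 7 of them passed the test, where 16.4% of all probes passed as higher in the base. The exception was the probe at position 369 of the transcript, with means of 1165, 1212 and 1296 and a difference of -0.16 ± 0.06 (SE, adjusted p = 0.075). It was the brightest of the 8, as the other 7 had apical means of 63 to 169 and basal means of 159 to 319. The pore probe, shown because it carries the same filter codons as that of Kcnma1 (capitals), was lower in the apex, at -1.06 ± 0.33 (SE, adjusted p = 0.027).

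Kcnn4 pore probe, chr7:25164197-25164256, plus strand: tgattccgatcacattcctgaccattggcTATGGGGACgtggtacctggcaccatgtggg

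Kcnn1 and Kcnn3, the SK1 and SK3 genes, did not pass the F test (adjusted p = 0.41 and 0.38). Kcnn1 ran from 75.92 to 91.24 on apical arrays, 87.65 to 90.67 on middle arrays and 80.77 to 102.2 on basal arrays, with apex minus base of -0.12 (log2, 95% confidence interval -0.28 to 0.05). Kcnn3 was dim, between 20.5 and 27.14 on apical, 22.85 and 33.34 on middle and 26.37 and 28.08 on basal arrays, and its apex minus base was -0.15 (95% confidence interval -0.40 to 0.10). Scaling to the spike-in probes turned both into passing differences, -0.60 and -0.64, and Kcnn1 also passed with -0.23 under median scaling and -0.26 under quantile normalization. Over probes well above background, Kcnn3 gave -0.38 (adjusted p = 0.0011), a mean that includes the 2 probes described next. Among the 8 probes of Kcnn3, 4 were well above background on all 12 arrays and the other 4 on none.

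Within Kcnn3, 2 of those 4 detected probes departed from the gene's other probes, where 6.29% of all probes in genes with 3 or more probes departed. Their apex-minus-base values were -0.69 ± 0.09 (SE) at position 1274 and -0.68 ± 0.10 at position 1949, against -0.05 and -0.09 for the other 2 detected probes. At both positions every basal array was above every apical array, for example 68.95 to 77.52 against 41.46 to 48.78 at position 1274. By percent identity these 2 are also the Kcnn3 probes most like a Kcnn2 probe, with 86.1% over 36 aligned bases and 88.3% over 60. The other 6 ranged from 46.7% to 81.7%, over 30 to 60 bases. This order depends on the length aligned: the probe at position 2147 matched 49 of 60 bases without departing, against 31 of 36 at position 1274. The probe at position 2147 was not well above background on any array. Whether RNA of Kcnn2 binds the 2 departing probes was not tested. The sequences below show the 2 departing probes and 1 that did not depart, with capitals at each base that differs from the closest Kcnn2 probe over the bases that align.

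Kcnn3 probe at position 1274, chr3:89368814-89368873, departing: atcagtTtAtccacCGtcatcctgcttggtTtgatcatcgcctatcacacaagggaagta
Kcnn3 probe at position 1949, chr3:89455991-89456050, departing: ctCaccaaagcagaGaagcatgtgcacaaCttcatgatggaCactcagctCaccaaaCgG
Kcnn3 probe at position 1696, chr3:89413599-89413658, not departing: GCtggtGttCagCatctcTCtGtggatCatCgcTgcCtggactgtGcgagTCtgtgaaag

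The probe at position 1949 lies at the border of the test (adjusted p = 0.0495) and kept its call without middle replicate 1 or 3 but not without any other single array, nor over detected probes alone (adjusted p = 0.052). Neither probe passed limma's diffSplice between apex and base (adjusted p = 0.32 and 0.33). The count of departing probes among the 8 genes was 4 without basal replicate 3, 2 without apical replicate 1, middle replicate 1 or middle replicate 3, and 1 without any of the other 8 arrays. Among Kcnn1 probes, the one at position 587 was the only one that passed as higher in the base (16.4% of all probes did), with -0.44 ± 0.11 (SE, adjusted p = 0.0092). It had 77.8% identity to a Kcnn2 probe over 36 bases. The Kcnn1 probe at position 1262, with 78.3% over 60 bases, did not pass (-0.43, limma, adjusted p = 0.13). That at position 1150, with 77.2% over 57 bases, gave 0.06 and did not pass either.

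**Figure D3:**
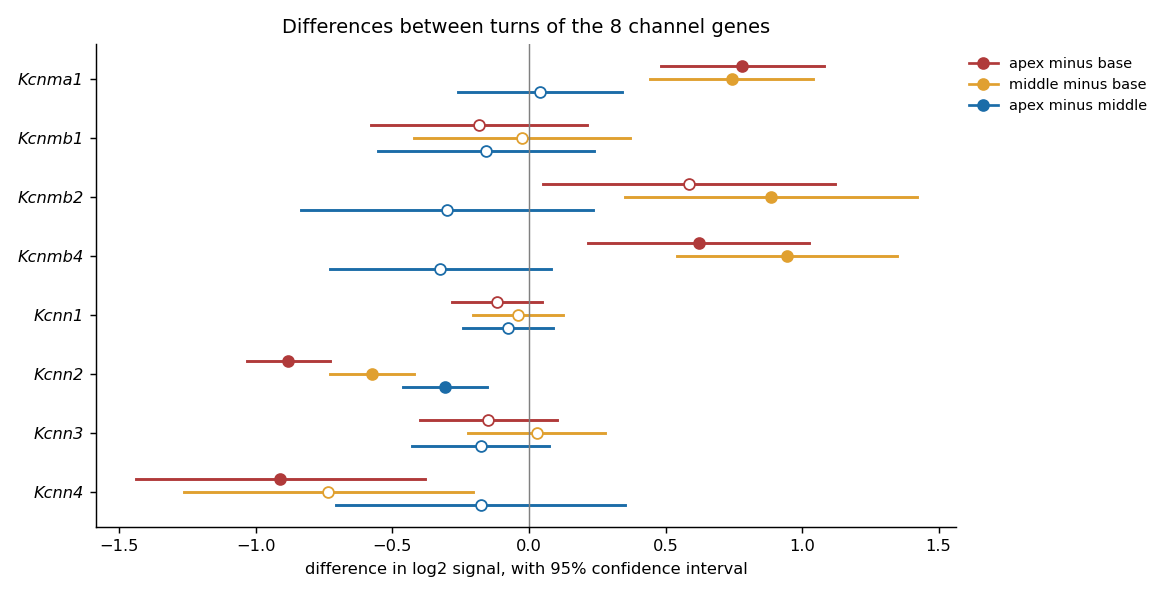
Difference in log2 signal (x axis) with its 95% confidence interval for apex minus base, middle minus base and apex minus middle in each of the 8 genes (y axis). Filled points passed limma's adjusted p under 0.05, open points did not. Kcnn2 is the 1 gene with all 3 differences filled.

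The log2 ratio of Kcnn2 to Kcnma1 signal within an array, a ratio of 2 genes' probes and not of molecules, was 1.11 ± 0.22 (SD, n = 4) at the apex, 1.45 ± 0.20 at the middle turn and 2.77 ± 0.36 at the base. This pair was chosen with its values known, so no test is given. The ratio of Kcnmb4 to Kcnma1 was -0.12 ± 0.28, 0.25 ± 0.23 and 0.04 ± 0.20 in the 3 turns, with overlapping arrays in all 3. A scaling factor of an array cancels in both ratios.

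Markers of the cell types that use these channels changed along the turns too. All 7 outer hair cell markers and all 9 measured hair cell markers were higher in the apex, including Slc26a5, the prestin motor, by 2.94 (log2). Of 11 neuron markers, 8 were higher in the apex and 1, Prph, in the base, and all 6 Schwann cell markers were higher in the apex. Stria vascularis markers went the other way, with 5 of 6 higher in the base, as did 5 of 7 macrophage and 4 of 5 spiral ligament markers. The remaining spiral ligament marker, Otor, was higher in the apex by 0.60. Other lists were mixed: of 6 smooth muscle markers 3 were higher in the base and 2 in the apex, and the same held for 6 endothelium markers. Of 5 supporting cell markers 2 were higher in the base and 2 in the apex, and of 5 bone markers 1 was higher in the base. No red cell marker of 6 passed. The summed level of the neuron list, its mean log2 signal, was 8.64, 7.96, 9.49 and 8.30 on basal replicates 1 to 4, against 9.72 to 9.99 in the apex. The basal array with the highest neuron level, replicate 3, also had the highest Kcnma1, Kcnmb2 and Kcnmb4, and the array with the lowest, replicate 2, the lowest of all 3. Basal replicates 3 and 2 were also the highest and lowest for the Schwann cell list (10.37 and 9.53) and the hair cell list (6.22 and 5.72). This order was therefore not particular to the neuron list, though the other cell type lists did not have it. The part of these markers in the differences of the BK genes was not tested, and the comparison that follows does not test it.

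Each gene was set against 3 marker lists within each array, as the gene's log2 signal minus the mean of the list, which removes array scaling and compares apex with base by an exact permutation test (two-sided, 4 against 4 arrays, smallest possible p = 0.0286). Relative to outer hair cell markers, Kcnn2 lay at 0.74 ± 0.10 (log2, SD, n = 4) in the apex and 3.20 ± 0.20 in the base (exact permutation, adjusted p = 0.0298 over 24 comparisons). Kcnma1, higher in the apex in itself, was lower there than in the base relative to the same markers, at -0.37 ± 0.23 against 0.42 ± 0.23 (exact permutation, adjusted p = 0.0298). Of the 24 pairs of gene and list, 23 reached that smallest value, all with lower values in the apex, and the exception was Kcnma1 against the neuron list, at -1.89 ± 0.11 in the apex and -1.40 ± 0.41 in the base (exact permutation, p = 0.114). The same was true of most genes on the array: all apical values lay below all basal values for 94.7% of all genes against the outer hair cell list, 92.5% against the hair cell list and 71.6% against the neuron list. The count of 23 is read against these shares and is no result about these channels, nor are the values of Kcnn2 and Kcnma1 above.

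**Figure D4:**
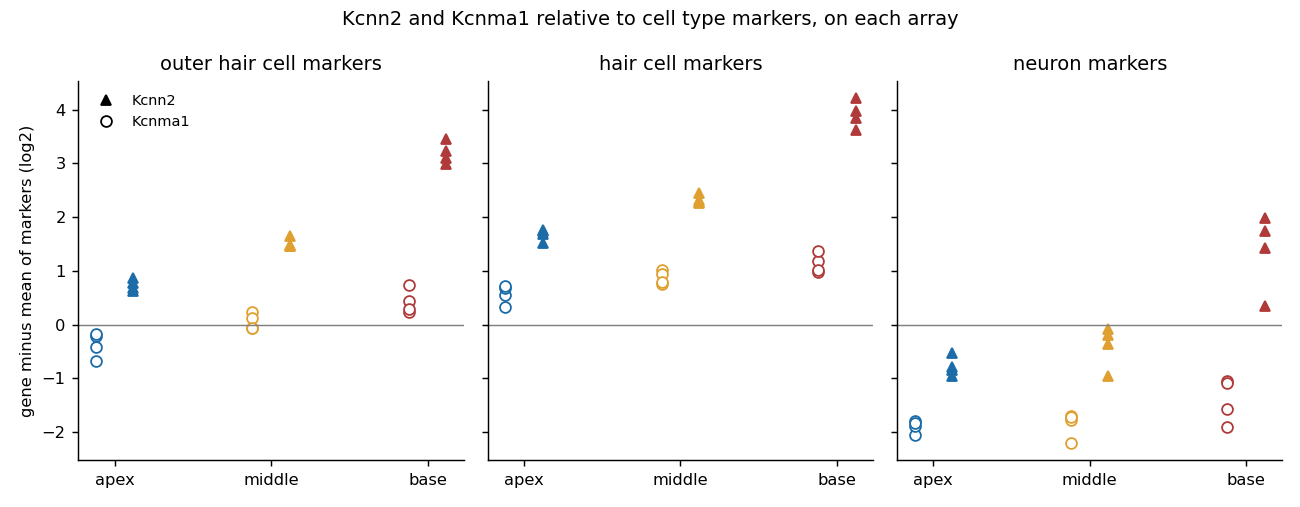
Log2 signal of Kcnn2 (triangles) and Kcnma1 (circles) minus the mean of outer hair cell, hair cell and neuron markers (y axis) on each of the 4 arrays of each turn (x axis). Kcnn2 lies at 0.63 to 0.86 above the outer hair cell markers in the apex and 2.98 to 3.46 above them in the base.

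Genes that work with these channels were counted from fixed lists. Among the BK gamma subunits, which shift the opening of BK channels to lower voltages, Lrrc52 was higher in the apex by 1.75 ± 0.15 (log2, SE, adjusted p = 1.2e-05), and Lrrc26 and Lrrc55 did not pass that comparison, with 0.24 and 0.66. The alpha9 and alpha10 receptor genes Chrna9 and Chrna10, whose calcium entry opens SK2 in outer hair cells, were higher in the apex by 1.78 ± 0.11 and 1.85 ± 0.12, opposite to Kcnn2. Among 6 calcium entry genes 4 were higher in the apex and none in the base, with Cacna1d, the main calcium channel of hair cells, at 0.51 ± 0.07 (adjusted p = 0.00017). All 6 calcium buffers and pumps were higher in the apex, from 0.34 for the pump gene Atp2b1 to 2.44 for the buffer gene Calb1. Chrna9, Chrna10 and the buffer gene Ocm are also in the outer hair cell list.

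Calm2 and Calm3 encode calmodulin, the calcium sensor bound to SK and IK channels, and neither passed, with differences of 0.07 and -0.11. Csnk2b, a subunit of the kinase CK2 that modulates SK channels, was the 1 of 6 calmodulin and CK2 genes that passed, as higher in the base by -0.37 (apex minus base, log2, adjusted p = 0.0010). Of 8 calcium store genes, Ryr2 (0.84) and the pump gene Atp2a3 (0.56) were higher in the apex and Itpr1 (-0.35) in the base. Kcnt1, a sodium-activated relative of Kcnma1, was higher in the apex by 0.59 (adjusted p = 0.0049). A further list held 77 other genes named Kcn with letters and a number, Kcnt1 among them and the Kcnip genes left out. Of these, 26 had the higher signal at the apex (17.6% of all genes) and 8 at the base (21.6% of all genes).

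The genes whose pattern over the 12 arrays was closest to that of a member were named after their values were seen, as the 5 with the smallest root mean square difference of centered log2 values among 16008 genes compared. For Kcnn2 these were Sema3c (0.052), Plxnd1 (0.066), Rassf3 (0.066), Tmem221 (0.081) and Stat5b (0.088), where the median over all genes was 0.39. For Kcnma1 they were Fbxl2 (0.073), Tspan2 (0.080), Car7 (0.083), Zcwpw1 (0.090) and Dbn1 (0.099). The 5 closest to Kcnmb4 included Pmp22 (0.11) and Prx (0.13), which are both in the Schwann cell list. Likeness over 12 arrays of 3 slides is a description of these arrays.

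**Figure D5:**
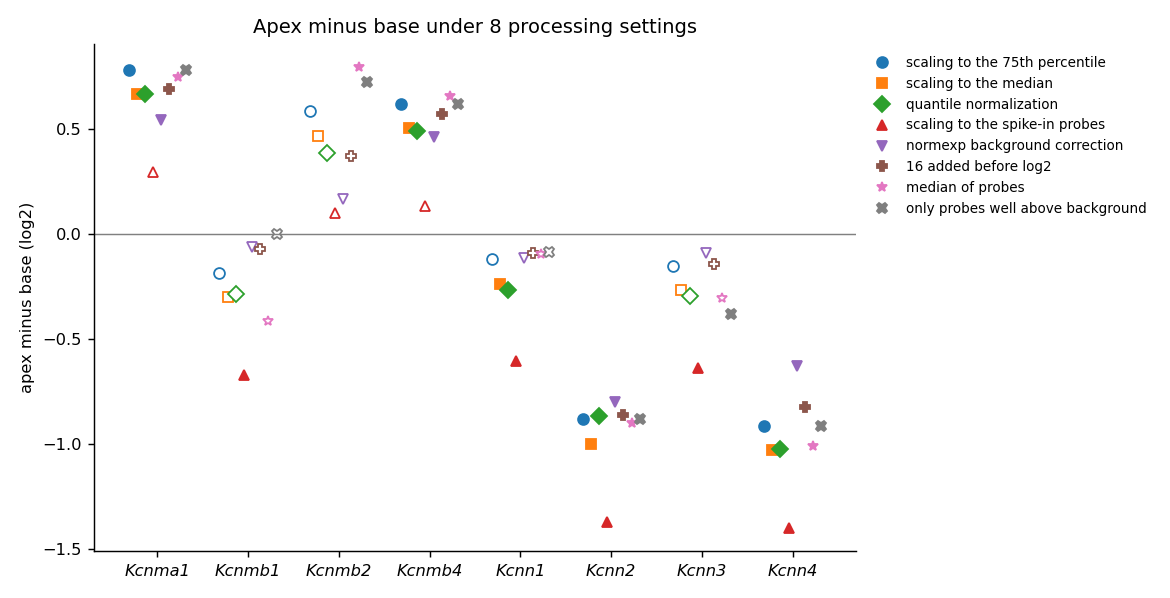
Apex minus base on the log2 scale (y axis) of each of the 8 genes (x axis) under 8 processing settings, filled where the adjusted p was under 0.05. Kcnn2 and Kcnn4 are below 0 and filled under all 8, and Kcnma1 and Kcnmb4 are above 0 under all 8 but open under scaling to the spike-in probes.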

How the data were processed

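The deposited files hold fluorescence intensities, which the authors extracted from scanned one-color images with Feature Extraction 10.7.3.1, subtracting background without normalizing between arrays. From these, control spots and 119 probes with a flagged spot were left out. Signals were divided by the array's 75th percentile, following the methods, then log2 transformed and averaged over repeated spots and over the probes of a gene name. Probe coordinates are those of the files, on mm9. Between 77.4% and 81.4% of spots per array were well above background, and this brightness limits precision for dim genes.

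Differences were tested with limma 3.58.1 in R 4.3.3 on the 12 arrays together, and p values were adjusted by Benjamini-Hochberg across all 19505 genes or all probes. A departing probe is one whose difference from the other probes' mean in its gene (3 or more probes) passed the F test. The named genes are the 8 members, their probes past a test, and fixed lists of partner genes and cell type markers. Members and lists were chosen with earlier results of these data known. The scripts were tested on simulated data. Alternatives were other scalings, normexp background correction (offset 50), 16 added before log2, other probe summaries, other tests, a replicate block and leaving out each array. Values of some single genes are not reported here.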

Additional observations from a re-analysis of the deposited data

How the results depend on the processing

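Kcnn2 and Kcnn4 kept their direction and their side of the threshold between apex and base under every alternative run. The value table the authors deposited equals the processed signal and changed nothing. The other scalings moved the median apex-to-base difference of all genes from -0.04 to -0.15 (median), -0.08 (quantile) and -0.52 (spike-in), and the cause was not tested. Under spike-in scaling the apex-to-base differences were 0.30 for Kcnma1 and 0.13 for Kcnmb4, which no longer passed, and -0.67 for Kcnmb1, -0.60 for Kcnn1 and -0.64 for Kcnn3, which then passed, so that the apex was higher for 0 members and the base for 5. Kcnn1 also passed with -0.23 (median) and -0.26 (quantile). Kcnmb2 passed with 0.80 as the median of probes and 0.59 with the replicate block, and was 0.10 (spike-in), 0.17 (normexp), 0.37 (16 added) and 0.39 (quantile) without passing. Its 0.72 over probes well above background is a mean over 2 probes, of which 1 was well above background on all 4 apical but only 1 basal array, and supports nothing. Over probes well above background Kcnn3 passed with -0.38, and Kcnmb1 turned to 0.0015. The apex-to-middle difference of Kcnma1 turned to -0.0127 (median), -3e-04 (quantile) and -0.18 (spike-in). Members past F and 2-fold numbered 1 under median scaling, quantile normalization and the median of probes, and 2 under spike-in scaling. Departing probes numbered 4 over probes well above background, 9 with normexp correction and 1, a Kcnma1 probe and neither of the Kcnn3 probes, with diffSplice. The Kcnn3 probe at position 1949 was not called with the replicate block (adjusted p = 0.10).

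With 1 array left out, apex minus base ranged from 0.69 to 0.91 for Kcnma1, -0.29 to -0.07 for Kcnmb1, 0.42 to 0.78 for Kcnmb2, 0.47 to 0.80 for Kcnmb4, -0.18 to -0.06 for Kcnn1, -0.93 to -0.85 for Kcnn2, -0.20 to -0.06 for Kcnn3 and -1.02 to -0.73 for Kcnn4. The apex-to-middle difference of Kcnma1 ranged from -0.0292 to 0.0886. Members past F ranged from 3 (without basal replicate 4) to 5, those past F and 2-fold from 0 to 2 (without basal replicate 3), those higher in the apex from 1 (without apical replicate 1, basal replicate 2 or basal replicate 4) to 3 (without basal replicate 3), and those higher in the base stayed at 2. Departing probes ranged from 1 to 4 (without basal replicate 3). The exact test against marker lists cannot pass with 3 against 4 arrays, where its smallest p is 0.0571, so its count was 0.

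Same-numbered samples of different turns correlated in their deviations by -0.04 to 0.23 over 12 pairs (mean 0.09), with 6 over 0.1. Samples with different numbers correlated by -0.26 to 0.25 over 36 pairs (mean -0.03), with 2 over 0.1. Whether a number marks a single mouse is not said in the labels and was not tested, so the main fit left the number out. With the replicate block the apex was higher for 3 members and the base for 2, and middle minus base of Kcnn4, -0.73, passed (adjusted p = 0.0035). It also passed under 11 other alternatives, with -1.01 to -0.49.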
